A study of Homo sapiens with 3 samples.

Results

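The unedited 5′ ends of 9 human promoters targeted with Cas9 were examined for where transcription starts and how the starts are spread. The cells were HEK293T, a human embryonic kidney line. They had received Cas9 ribonucleoprotein in 2 rounds of transfection, with 1 guide RNA for each promoter. CRISPR-Cap then read the capped 5′ ends of the RNA made from these promoters with gene-specific primers. Members were all targets for which the deposited list holds 100 or more ends classed as unedited (WT). These were 9 of 13 targets, with 49712 of the 49835 unedited ends (99.75%). The list has 131949 ends in all, and those that carry a deletion were not used.

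All ends came from transfected cells, so the unedited class is what was left unedited in a treated culture and not an untreated control. RNA that starts downstream of an edit cannot show it and could be listed as unedited, which was not tested. The 2 CRISPR-Cap libraries are pooled in the list with no column that separates them. No difference below therefore has a replicate check, and the 95% intervals cover counting error only. If lines are PCR reads and not single molecules, the intervals are too narrow. The list covers only the targeted genes, so the identity of the cell line could not be checked against marker genes.

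Depth ran from 813 unedited ends at NDUFV3 to 29727 at C19orf43, with a median of 1453. The threshold of 100 ends fell in a wide gap, since NDUFV3 was the shallowest member and EDEM2, with 53 ends, the deepest target left out. The other targets left out were TXNRD2 with 35 ends, IRF1 with 31 and SOCS1 with 4.

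RNA polymerase II begins transcription at single bases that are set by the core promoter. Most human starts fall on an initiator, at its simplest a purine preceded by a pyrimidine. A TATA box upstream of the start fixes its position closely, and promoters without one, often rich in G and C, tend to use many starts. A further kind of initiator starts at a C within a run of pyrimidines and is known from genes of ribosomal proteins and translation factors. In what follows a position is counted in bases upstream or downstream of the main start, which is the most used position of a target.

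The sequences around the main starts are shown for the 5 members with an entry in the RefSeq promoter table (GRCh38.p14, the hg38 coordinates), together with the second start of NDUFV3, because they show how unlike the starting bases are. Each runs 5′ to 3′ along the direction of transcription, from 20 bases upstream to 9 bases downstream of the start. The capitals mark the base before the start and the start base itself. The windows are chr11:66616610-66616639 on the plus strand for RBM4, chr6:26234978-26235007 on the minus strand for HIST1H1D, chr16:2251584-2251613 on the minus strand for ECI1, chr12:51048307-51048336 on the plus strand for LETMD1, and chr21:42893291-42893320 and chr21:42893252-42893281 on the plus strand for NDUFV3.
RBM4 main start: ggggttctcggtcgccagcCAttcctgagg
HIST1H1D main start: cagcctccctcgtagaggaCAtgctgttct
ECI1 main start: ggaggcgagctcagcccgcGAcctttatcc
LETMD1 main start: aactttgacccaaagacaaCCtcttctctc
NDUFV3 main start: cgcagctgctgtggccctgCTtggtgcgcc
NDUFV3 second start: agtcggcccaaggggcggcTGttcaggcgc

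RBM4 and HIST1H1D started on an A after a C, the most common human initiator step. ECI1 started on an A after a G. LETMD1 started on a C at the head of a pyrimidine run, and the main start of NDUFV3 was a T after a C.

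The 9 promoters covered the range from a single dominant base to dispersed starts. The main start held at least 50% of the unedited ends in 6 of 9 targets and less in 3. Its share had a median of 54.4% and ran from 24.2% at NDUFV3 to 78.3% at C1orf63. The profiles of all 9 are drawn by distance from the main start.

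**Figure D1:**
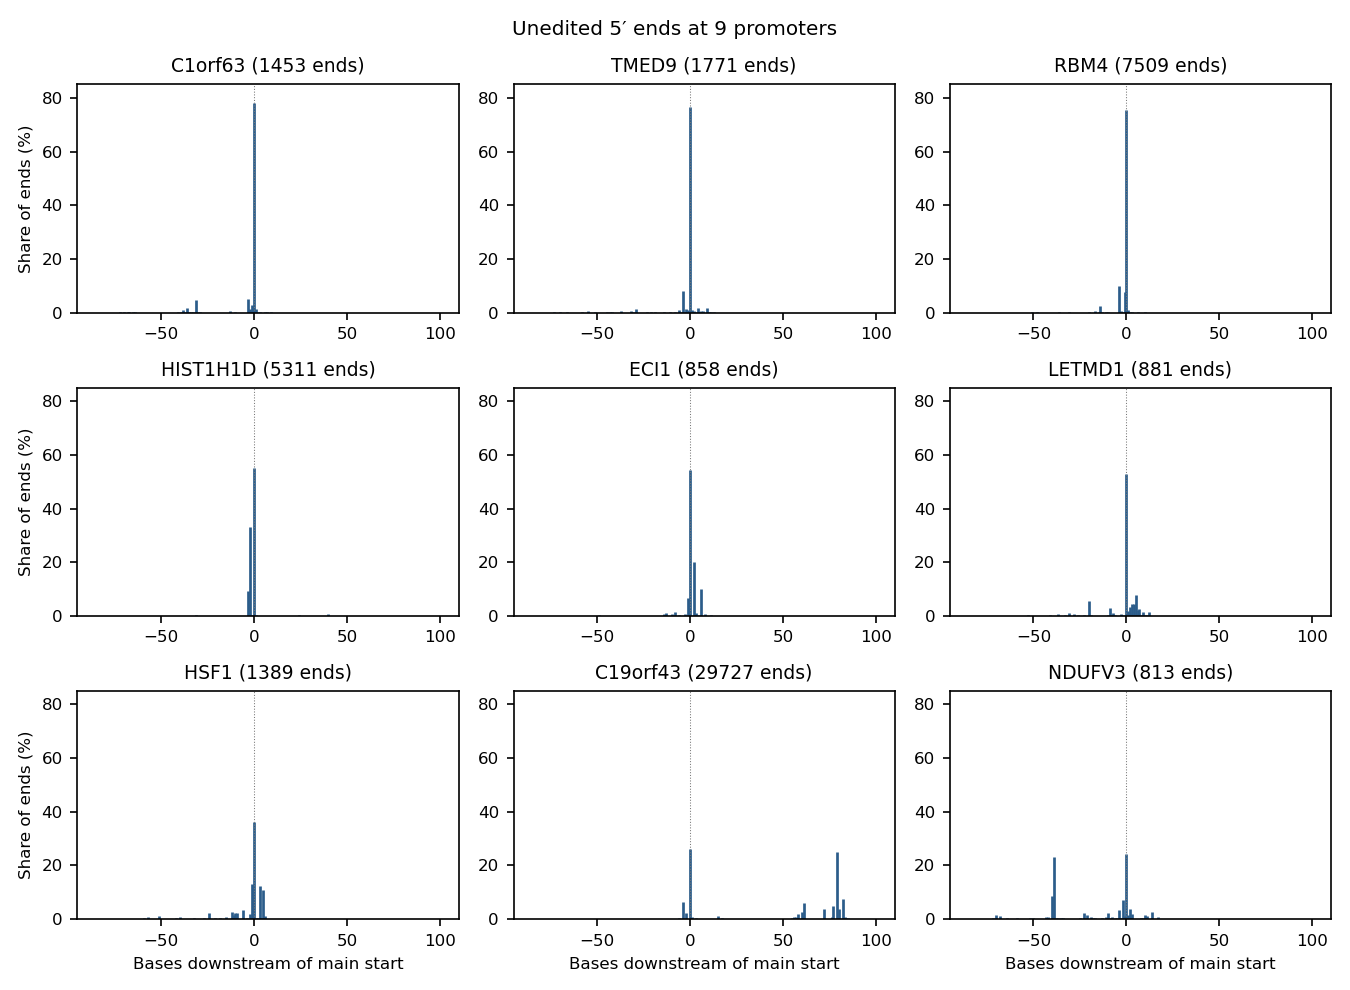
Share of the unedited 5′ ends (%, vertical axis) at each base, by its distance in bases downstream of the main start (negative is upstream), for 9 targets ordered by main-start share. C1orf63, TMED9 and RBM4 show 1 tall line, while C19orf43 and NDUFV3 show a pair of lines of nearly equal height, 79 and 39 bases apart.

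C1orf63, TMED9 and RBM4 formed the top of this order. At C1orf63, now named RSRP1, the main start held 1137 of 1453 ends (78.3%, Wilson 95% interval 76.1 to 80.3%). At TMED9, which encodes a protein that sorts cargo between the endoplasmic reticulum and the Golgi, it held 1359 of 1771 (76.7%, 74.7 to 78.6%). RBM4 had 5668 of 7509 (75.5%, 74.5 to 76.4%) at a base that GENCODE release 29 gives as the start of RBM14, an RNA-binding coactivator. The sequence, annotated starts and start codon given here for RBM4 are those of RBM14. The intervals of neighbours in this order overlapped among these 3, so their order was not resolved at this depth.

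The next 3 promoters lay near 54%. HIST1H1D, a linker histone gene (H1-3 in RefSeq), had 2932 of 5311 ends at the main start (55.2%, 53.9 to 56.5%). It belongs to a family of similar genes, and how its ends were told apart from those of other H1 genes is not stated, so its values are uncertain in that respect. ECI1, an isomerase of mitochondrial fatty acid breakdown, had 467 of 858 (54.4%, 51.1 to 57.7%). LETMD1, which encodes a mitochondrial membrane protein, had 467 of 881 (53.01%, 49.7 to 56.3%). These 3 also overlapped with each other, but all lay below RBM4 and above HSF1 by intervals that did not overlap.

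The main start was a minority start in the remaining 3. HSF1, the heat shock transcription factor, had 502 of 1389 ends there (36.1%, 33.7 to 38.7%). C19orf43, now named TRIR, had 7722 of 29727 (25.98%, 25.5 to 26.5%). NDUFV3, an accessory subunit of respiratory complex I, had 197 of 813 (24.2%, 21.4 to 27.3%). HSF1 lay above both others, whose intervals overlapped.

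The second start was close by in most targets and far away in the pair with the flattest profiles. It lay within 5 bases of the main start in 7 of 9 targets. The exceptions were C19orf43, where it lay 79 bases downstream, and NDUFV3, where it lay 39 bases upstream. At C19orf43 the second start held 7389 ends (24.9%, 24.4 to 25.4%), barely less than the main start. At NDUFV3 it held 187 ends (23.0%, 20.2 to 26.02%), and the interval overlapped that of the main start, so which of the 2 bases is used more was not resolved.

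In the other 7 the second start was clearly lower than the main one. The ratio of main to second start was largest at C1orf63, 15.8, where the second start 3 bases upstream held 4.96%. It was 9.64 at TMED9 (4 bases upstream, 7.96%), 7.53 at RBM4 (4 bases upstream, 10.03%) and 6.77 at LETMD1 (5 bases downstream, 7.83%). The smallest ratio among the 7 was 1.67, at HIST1H1D, where an A 2 bases upstream of the main start held 1753 ends (33.01%, 31.8 to 34.3%). HSF1 had 13.2% of its ends 1 base upstream, and ECI1 had 20.05% (17.5 to 22.9%) 2 bases downstream.

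Entropy uses the whole profile and not only its highest base. It is given here as the effective number of starts, 2 to the power of the Shannon entropy in bits, which is the number of equally used starts that would give the same entropy. The median was 4.52 over the 9 targets. RBM4 had the lowest value, 2.69 (2.60 to 2.78), followed by C1orf63 (2.86, 2.63 to 3.11), HIST1H1D (2.92, 2.84 to 3.00) and TMED9 (3.18, 2.93 to 3.45). By entropy these promoters had the equivalent of about 3 equally used bases. The order-2 effective number, which gives low starts less weight, was lower. It was 1.71 at RBM4, 1.62 at C1orf63, 2.37 at HIST1H1D and 1.68 at TMED9.

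ECI1 stood between the groups with 4.52 (4.14 to 4.94) effective starts. LETMD1 had 7.78 (6.97 to 8.68), HSF1 10.4 (9.64 to 11.2), C19orf43 11.8 (11.7 to 12.04) and NDUFV3 15.07 (13.6 to 16.7). The order by entropy was not the order by main-start share. LETMD1 and HIST1H1D had overlapping main-start shares, but the effective number at LETMD1 was higher with an interval that did not overlap, and its 14 starts with 1% or more of the ends compare with 3 at HIST1H1D.

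**Figure D2:**
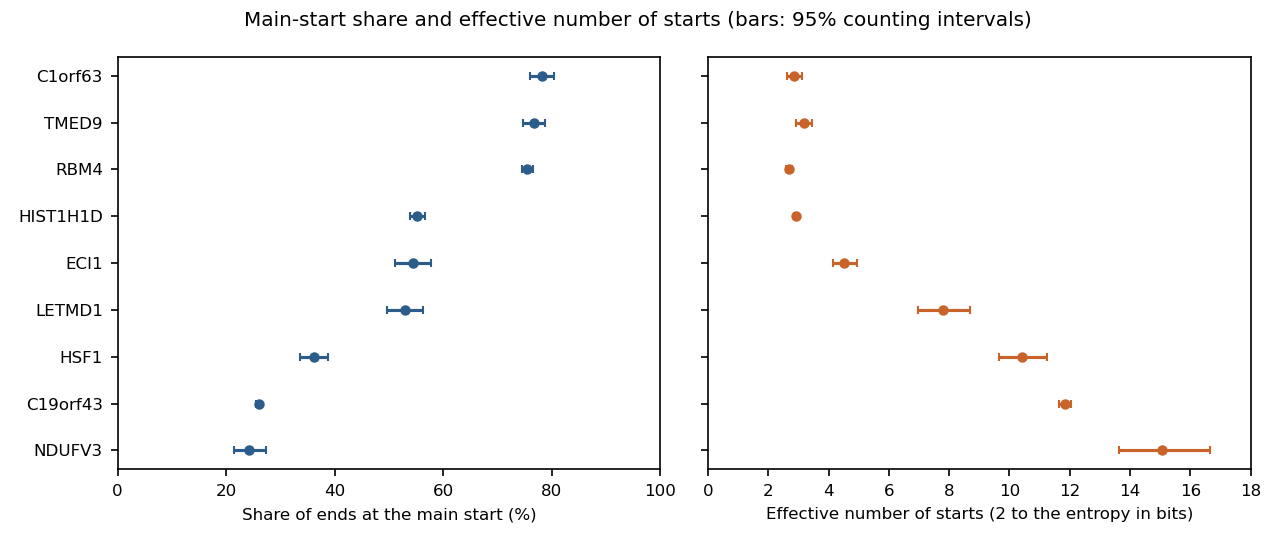
Left, share of unedited ends at the main start (%) with its Wilson 95% interval; right, effective number of starts with the 95% interval from the variance of the entropy. Targets are in the same order in both panels, and HIST1H1D, at 55.2% of ends, sits with the promoters of lowest effective number, 2.92.

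Used bases were also counted directly. A median of 8 positions per target held 1% or more of the ends, from 3 at HIST1H1D to 16 at NDUFV3. LETMD1 had 14, HSF1 13 and C19orf43 12, while RBM4 had 4. The fewest positions that together hold 90% of the ends numbered 3 at HIST1H1D and RBM4, 4 at C1orf63 and ECI1, 6 at TMED9, 12 at C19orf43, HSF1 and LETMD1, and 20 at NDUFV3.

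All positions with any end numbered 23 at ECI1 to 103 at C19orf43, but this count grows with depth. Brought to the depth of the shallowest member, 813 ends, by the exact formula for drawing without replacement, the expected number was lowest at HIST1H1D (13.2) and RBM4 (18.6) and highest at NDUFV3 (54). C19orf43 came to 41.5 and HSF1 to 41.4, so at equal depth NDUFV3 and not C19orf43 had the most positions. Positions seen only once made up 16 of the 32 at HIST1H1D and 12 of the 54 at NDUFV3.

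Width was measured as the stretch from the 10th to the 90th percentile of the end positions, which holds 80% of the ends. A width of 10 bases or less, the limit for a narrow start region used here, was found in 4 of 9 targets and a larger one in 5. The median was 14 bases, which is the value of C1orf63. The interval of that target, given below, spans the limit of 10 bases, so its side of the split was not resolved. Within 50 bases of the main start the count was 6 of 9 and the median 6 bases, and without positions of fewer than 10 ends they were 5 of 9 and 7 bases. HIST1H1D was narrowest with 3 bases (3 to 4, from the order statistics of the percentiles), followed by RBM4 with 5, TMED9 with 5 and ECI1 with 8 (5 to 8).

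C1orf63 had the highest main-start share and yet a width of 14 bases. Its interval was wide, 4 to 32 bases, and its 10th percentile lay 13 bases upstream among scattered ends. With positions of fewer than 10 ends left out the width was 4 bases. HSF1 had a width of 20 bases (18 to 26), LETMD1 25 (15 to 27), NDUFV3 43 (43 to 44) and C19orf43 81.

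The middle 50% of the ends spanned 1 base at C1orf63, RBM4 and TMED9, 3 at ECI1 and HIST1H1D, 4 at LETMD1, 5 at HSF1, 40 at NDUFV3 and 80 at C19orf43. Width in LETMD1 and HSF1 therefore came from low flanking starts, and in NDUFV3 and C19orf43 from starts that were strong at both edges.

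**Figure D3:**
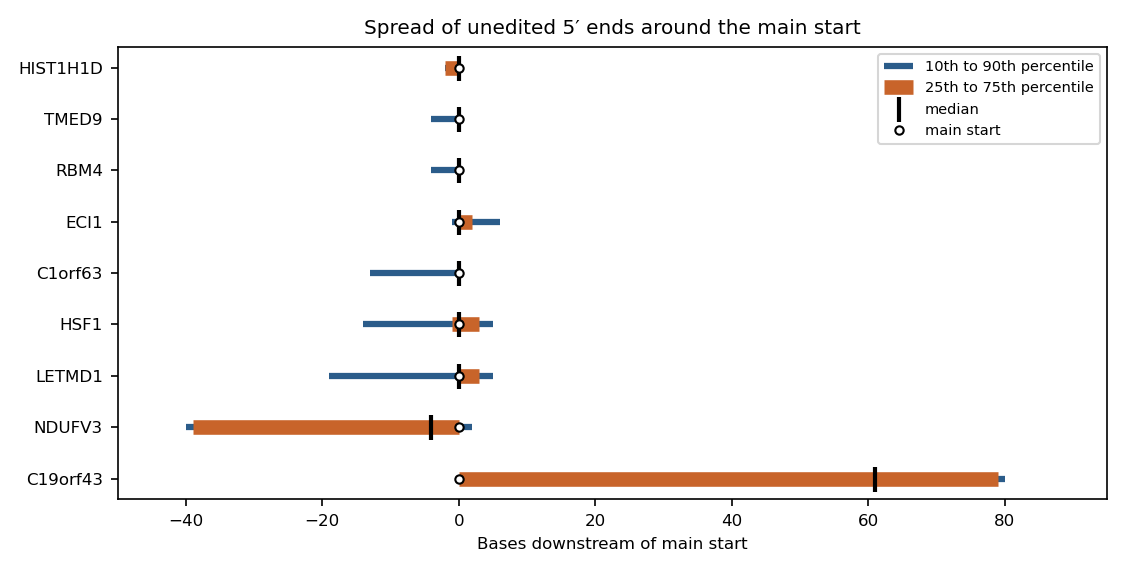
Position of the unedited ends relative to the main start (bases downstream, horizontal axis) for 9 targets ordered by width. Thin bars run from the 10th to the 90th percentile, thick bars from the 25th to the 75th, ticks are medians and open circles main starts. The thick bar spans 80 bases at C19orf43 and 40 at NDUFV3, and at most 5 elsewhere.

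The profiles were not symmetric. More ends lay upstream than downstream of the main start in 6 of 9 targets. RBM4 had 22.9% upstream and 1.57% downstream, C1orf63 19.8% and 1.93%, HIST1H1D 42.97% and 1.83%, and TMED9 16.7% and 6.55%. At HSF1 the 2 sides were 37.9% and 25.9%, and at NDUFV3 61.6% and 14.1%. The last listed end lay 6 bases downstream at HSF1, 9 at C1orf63, 11 at RBM4, 13 at TMED9 and 17 at NDUFV3. In the same targets the first listed end lay from 66 (HSF1) to 84 (RBM4) bases upstream. At HIST1H1D listed ends ran from 31 bases upstream to 58 downstream. The balance of sides therefore holds for the listed ends only.

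More ends lay downstream than upstream at C19orf43 (9.43% upstream, 64.6% downstream), ECI1 (12.5% and 33.1%) and LETMD1 (16.7% and 30.3%). The farthest upstream ends lay 87 bases from the main start at ECI1 and 31 at HIST1H1D. The gene-specific primers limit how far downstream a start can be read, and their positions were not used here, and the part of the assay in the asymmetry was not tested. Ends more than 20 bases from the main start made up 0.583% at ECI1, 0.599% at RBM4 and 1.73% at HIST1H1D, but 43.7% at NDUFV3 and 61.1% at C19orf43.

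Starts with 5% or more of the ends lay mostly next to each other. There were 20 gaps between neighbouring starts of this strength, in 8 targets (C1orf63 had a single such start). The median gap was 3 bases, 16 of 20 were 5 bases or less, and 5 were a single base. The gaps over 20 bases were 61 bases at C19orf43 and 37 at NDUFV3.

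Separate clusters were rare. Positions with 1% or more of the ends were joined where they were 20 bases or less apart, and a cluster had to hold 5% of the ends. C19orf43 and C1orf63 had 2 clusters each and the other 7 targets had 1. This count moved with the settings, from 1 to 4 targets. C19orf43 was counted under each joining distance and floor tried, but not when only 50 bases on either side of the main start were kept, which leaves its downstream cluster out. Its main-start share was then 65.3%, its effective number 3.90 and its width 6 bases.

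At C19orf43 the upstream cluster ran from 4 bases upstream to 15 bases downstream of the main start at chromosome 19, 12734742, on the minus strand. It held 11243 ends (37.8%, 37.3 to 38.4%). The downstream cluster ran from 58 to 82 bases downstream and held 16855 (56.7%, 56.1 to 57.3%). The base with the most ends thus lay in the smaller cluster.

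The clusters also differed in shape. The main start made up 68.7% of the upstream cluster, which had 3.00 effective starts. The base at 12734663, 79 bases downstream, made up 43.8% of the downstream cluster, which had 6.40. Apart from it, the downstream cluster had 7.33% of all ends at 82 bases, 5.85% at 61 and 4.93% at 77.

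At C1orf63 the minor cluster held 118 ends (8.12%, 6.82 to 9.64%) at 31 to 38 bases upstream. Its leading base, 25247485 on chromosome 1, had 68 ends (4.68%, 3.71 to 5.89%). The main cluster of 5 bases at 25247454 held 1287 ends (88.6%, 86.8 to 90.1%). With a joining distance of 40 bases the 2 became 1, and with a floor of 0.5% or 2% the target also had a single cluster.

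NDUFV3 had 2 peaks that the joining distance of 20 bases put into 1 cluster. Its single cluster ran over 55 bases, from 40 bases upstream to 14 downstream of 42893311 on chromosome 21, and held 751 ends (92.4%, 90.3 to 94.01%). The bases 39 and 40 upstream held 23.0% and 8.61%. Low starts 10, 21 and 23 bases upstream, with 2.09%, 1.60% and 2.09%, linked the peaks at that distance. No end was listed at the bases between 33 and 25 upstream. With a joining distance of 10 bases NDUFV3 was counted as 2 clusters, whose leading bases lay 39 bases apart. LETMD1 gained a second cluster in that setting as well, led by the base 20 bases upstream, with 49 ends (5.56%, 4.23 to 7.28%).

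HSF1 was dispersed in another way, with 4 strong starts in 7 bases. The main start at chromosome 8, 144291605, held 36.1%, and the bases 1 upstream, 3 downstream and 5 downstream held 13.2% (11.6 to 15.1%), 12.4% (10.8 to 14.2%) and 10.9% (9.41 to 12.7%). Lower starts followed upstream, 3.46% at 6 bases, 2.52% at 12 bases and 2.30% at 24 bases. Its 1 cluster was 31 bases long and held 94.7% of the ends. Downstream the HSF1 profile stopped sharply, with 152 ends at 5 bases, 18 at 6 and none listed beyond. Whether starts farther downstream were lost was not tested. The shares, width and balance of sides at HSF1 hold for the listed ends only, as they do at the other targets. At LETMD1 the last listed base, 12 downstream, held 14 ends, against 4 at 11 downstream and 3 at 10.

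The sequence at the start was read for all 9 targets, from the RefSeq promoter table for 5 and from GENCODE transcripts for the other 4. For HSF1 the transcripts cover only 89.99% of the ends. Of the positions from the first to the last end, they cover 20 of 73 at HSF1 and 58 of 87 at TMED9. The measure was the share of ends on a pyrimidine-purine step. It was set beside the share of positions of that kind between the first and last end of the target. Both shares were taken only where sequence was read. The median share of ends was 73.2%, against a median of 23.96% of positions. The share of ends exceeded that of positions in 8 of 9 targets.

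TMED9 had 93.3% of its ends on such a step (92.04 to 94.4%, against 29.3% of positions). RBM4 had 86.4% and C1orf63 85.4%, C19orf43 73.7%, and HSF1 73.2%. HIST1H1D had 56.8% (55.4 to 58.1%) and NDUFV3 51.9% (48.5 to 55.3%). In each of these 7 the lower bound of the interval lay above the share of positions.

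ECI1 and LETMD1 had the lowest shares. At ECI1 20.05% of the ends (17.5 to 22.9%) were on a pyrimidine-purine step, and the lower bound lay just above the 17.2% of positions. At this target 55.7% were on a purine-purine step, mostly at the main start. Reading every ECI1 end 1 base farther upstream would put 55.7% on a pyrimidine-purine step. No other target gained from that move, and whether the ECI1 positions are 1 base off was not tested.

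At LETMD1 14.8% of the ends (12.6 to 17.3%) were on a pyrimidine-purine step, less than the 23.6% of positions. A pyrimidine-pyrimidine step carried 82.3% of them, and moving the positions by 1 base either way gave 1.36% or less on a pyrimidine-purine step. The ends lay in an unbroken run of 13 pyrimidines that begins 1 base before the main start. This run held 720 of 881 ends (81.7%, 79.04 to 84.1%), and the bases 2 to 7 downstream of the main start, all within it, held 2.16% to 7.83% each. The first bases of the run are the capitals in the LETMD1 sequence. The width of 25 bases at LETMD1 nevertheless came mostly from ends upstream of the run, since its 10th percentile lay 19 bases upstream.

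**Figure D4:**
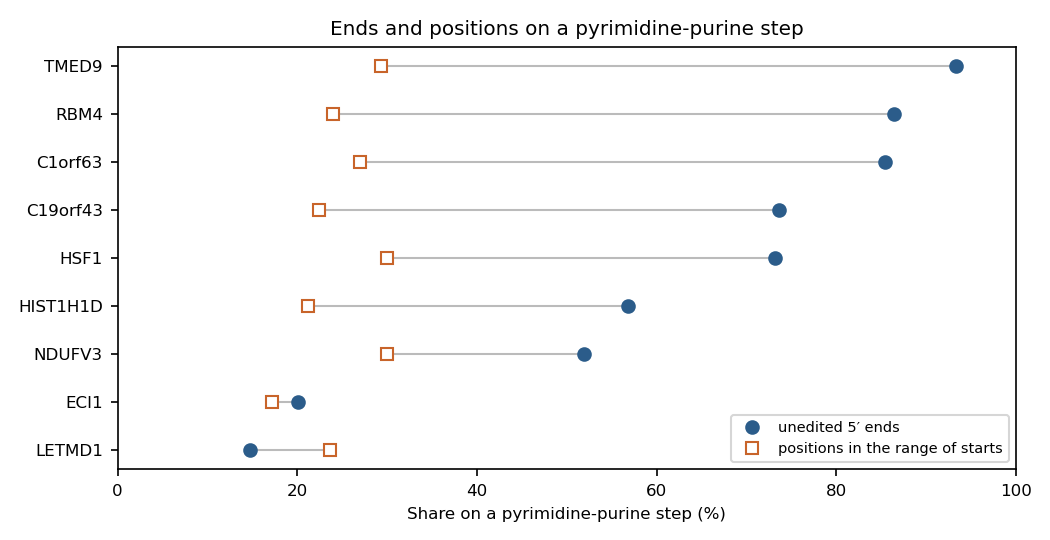
Share of unedited ends (filled circles) and of positions (open squares) on a pyrimidine-purine step (%, horizontal axis), for 9 targets ordered by the share of ends. Positions are those with sequence between the first and last end. The circle is far to the right of the square except at ECI1 (20.05% against 17.2%) and at LETMD1 (14.8% against 23.6%), where it is to the left.

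By the 2 bases involved, CA led. Averaged over the 9 targets with equal weight, CA took 41.3% of the ends and 5.03% of the positions. It was the main-start step of 5 targets: C19orf43, C1orf63, HIST1H1D, RBM4 and TMED9. CG took 10.9% of the ends and 11.2% of the positions, close to its frequency, although it was the step of the HSF1 main start and of the start 79 bases downstream at C19orf43. TG took 6.92% and 6.67%. Among steps that are not pyrimidine-purine, CC took 13%, with its highest share (54.1%) at LETMD1, and GA 10.8%, with its highest share (55.5%) at ECI1.

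Main starts had a pyrimidine-purine step in 6 of 9 targets and second starts in 4 of 9. Between the first and last end of the 9 targets there were 179 such steps with sequence. Of these, 39 (21.8%) held 1% or more of the ends of their target and 64 held none. Of the 566 positions with another step, 44 (7.77%) held 1% or more. The step was thus used more often than others, while many such steps were unused and 44 of the 83 starts with 1% or more were on another step.

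Core promoter motifs were searched by exact letters on both strands in the 5 members with a RefSeq entry. TATAAA, the TATA box, was searched from 35 to 20 bases upstream of the main start and found in 1 of 5, HIST1H1D, from 30 to 25 bases upstream on the transcribed direction. It occurs in that window in 2.64% of all 35116 promoters of the table. HIST1H1D was also the narrowest of the 9 promoters, with 3 bases. RBM4, with a width of 5 bases, had no TATAAA in the window, and TMED9, also with 5, was not searched. A link between the box and the width was not tested.

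CCAAT, the box bound by NF-Y, was searched from 100 bases upstream to 49 downstream and found in 4 of 5, against 21.3% of all promoters. It lay 55 bases upstream at HIST1H1D, 75 at LETMD1, 67 at NDUFV3, and 81 and 48 at RBM4, counted at its most upstream base, on the transcribed direction at HIST1H1D and LETMD1 and on the opposite strand in the others. GGGCGG, the GC box, was found in ECI1 and NDUFV3 (35.05% of all promoters). At NDUFV3 1 copy ended 42 bases upstream of the main start, and in the sequence of the second start it stands 1 base before the capitals. The ETS-type core CCGGAAG (7.46% of all promoters) and the palindromic NRF1 site (0.926%) were in none of the 5. ATGGCGG, the core of the YY1 site, was found only at NDUFV3, 18 to 24 bases downstream on the opposite strand, where it overlaps the annotated start codon (3.87% of all promoters). A match to the letters does not show a bound site.

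The base composition ahead of the start varied among these 5. The 50 bases upstream of the main start were 78% G and C at ECI1, 76% at NDUFV3 and RBM4, 52% at HIST1H1D and 50% at LETMD1, beside a median of 60% over all promoters of the table. RBM4 and NDUFV3 had the same composition and lay at opposite ends of the order by effective number. A link between composition and the spread of starts was not tested.

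The measured starts were set against annotated ones. The RefSeq start was the measured main start at HIST1H1D, LETMD1 and RBM4. At NDUFV3 it lay 2 bases upstream, at a base with 7.01% of the ends, and at ECI1 6 bases downstream, at a base with 10.02%. In GENCODE release 29 a transcript began exactly at the main start of C1orf63, HSF1, LETMD1 and RBM4.

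The distances were larger elsewhere. The nearest GENCODE start lay 2 bases away at ECI1, 10 at NDUFV3, 14 at TMED9 and 33 at C19orf43. At HIST1H1D the GENCODE transcript begins at the start codon, 54 bases downstream, and 99.93% of the ends lay upstream of it. HSF1 had 9.94% of its ends upstream of every GENCODE start of the gene in this region.

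The distance from a 5′ end to the start codon sets the length of the leader that a ribosome would scan. The codon lies in the first exon of at least 1 annotated transcript in 8 of the 9 targets (C1orf63 has it in a later exon, 212 spliced bases from the main start). From the main start, the leader was 12 bases at TMED9, 23 at NDUFV3, 27 at ECI1 and 30 at LETMD1. It was 54 at HIST1H1D, 85 at C19orf43, 91 at RBM4 (to the codon of RBM14) and 153 at HSF1. The main leader was thus 30 bases or less in 4 of 8 targets.

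Dispersed starts changed this length within a promoter. At C19orf43 the main start gave 85 bases, but the start 79 bases downstream gave 6 and the one at 82 bases gave 3. The leader shares at C19orf43 carry the same untested limit as the balance of its clusters. Leaders of fewer than 20 bases were carried by 14020 of 29727 ends (47.2%, 46.6 to 47.7%), and the median was 24 bases. At TMED9 95.03% of the ends (93.9 to 95.9%) had leaders that short, because the main start itself did. At NDUFV3 the share was 7.13%, and the 10th and 90th percentiles of the leader were 21 and 63 bases.

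Short leaders were rare in the others: 2.04% at LETMD1, 1.28% at ECI1 and 0.772% at HIST1H1D. At HSF1 and RBM4 none was listed, which allows shares of listed ends of up to 0.276% and 0.0511% by the upper Wilson bound. The last listed end lay 6 bases downstream of the main start at HSF1 and 11 at RBM4. Whether ends farther downstream could be listed was not tested, so these bounds do not cover them. Almost no listed end lay past the first base of the start codon. C19orf43 had 70 such ends (0.235%), HIST1H1D 2 (0.0377%) and TMED9 2 (0.113%), and the other 5 had none. Besides HSF1 and RBM4, the last listed ends lay 11 bases downstream of the main start at ECI1, 12 at LETMD1 and 17 at NDUFV3. The counts of none therefore do not show that no RNA starts near or past the codon.

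**Figure D5:**
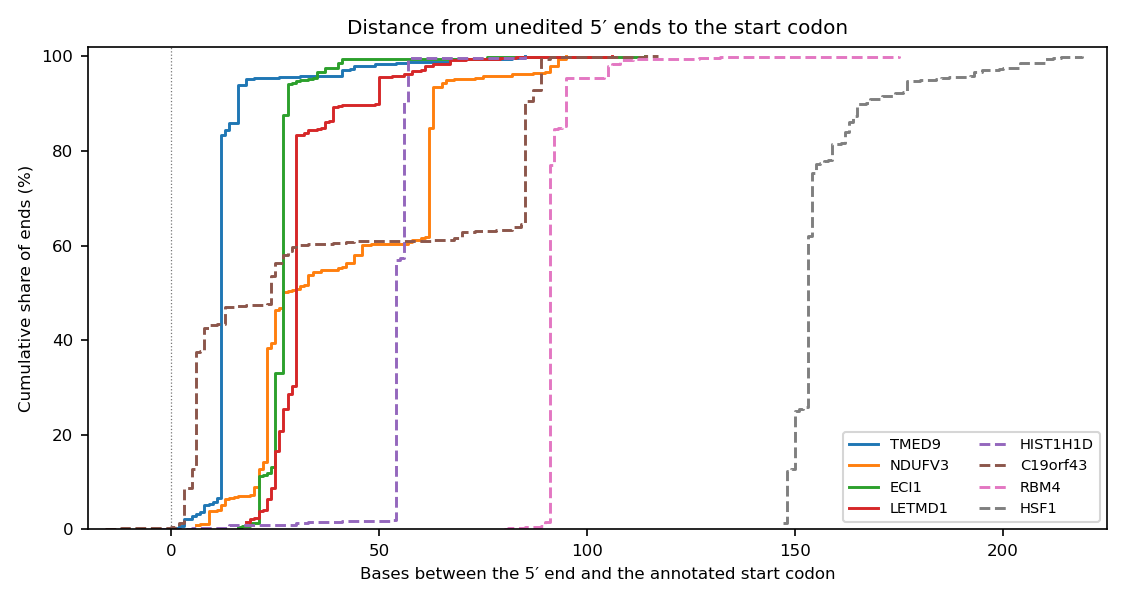
Cumulative share of unedited ends (%, vertical axis) by the number of bases between the 5′ end and the annotated start codon (horizontal axis, negative values lie past the first base of the codon), for the 8 targets with the codon in the first exon. Most curves rise in 1 step, at 12 bases for TMED9 and 91 for RBM4, while C19orf43 and NDUFV3 rise in 2.

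The 4 targets with fewer than 100 unedited ends were too shallow to place. Their main-start shares were 74.3% at TXNRD2 (57.9 to 85.8%), 58.5% at EDEM2 (45.1 to 70.7%), 48.4% at IRF1 (31.97 to 65.2%) and 75% at SOCS1 (30.1 to 95.4%). The main start listed under EDEM2 is the RefSeq start of another gene, MMP24OS. The interval of each of the 4 overlapped those of at least 3 members.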

How the data were processed

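Capped 5′ ends were read in HEK293T cells by CRISPR-Cap in 2 libraries. The authors deposited 1 list with a line per end, giving its class, its position counted from 0 and the target name, per the file headers. STAR and hg38 were used per the submitters' processing notes. The sources used here do not state how a line was classed as unedited, or whether random bases were collapsed. No further columns of per-sample values were present.

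Lines classed WT were tallied per target after adding 1 to the position. Strand, annotated starts and codons came from GENCODE release 29, and sequence came from RefSeq (GRCh38.p14) and GENCODE transcripts. Shares have Wilson 95% intervals. Entropy intervals use its variance, and percentile intervals use binomial order statistics. The measures were tested on simulated data. For the entropy, the interval was widened before that check, unlike the printed intervals, and a broad profile was exempt. Entropy intervals were thus not checked as printed. No hypothesis test was made, because the libraries are pooled and targets are not replicates. Every target is named, with its main start, second start, starts of 10% or more and cluster tops; other positions were named after their values were seen. Start codon distances, moves by 1 base and the pyrimidine run were added after the data were examined. The targets, measures and motif lists were chosen with earlier results of these data known. Reporter data and ends with deletions were not used. Python 3.11.15, numpy 2.4.6, pandas 2.3.3 and scipy 1.17.1 were used.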

Additional observations from a re-analysis of the deposited data

How the results depend on the processing

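The median main-start share stayed between 55.2% and 57.7% when low positions were left out, when only 50 bases on either side were kept, with all 13 targets, and with bases joined in bins of 3; leaving out 1 target at a time gave 53.7 to 54.8%. The median effective number of starts of 4.52 became 3.29 without positions of fewer than 10 ends, 3.90 within 50 bases of the main start, 4.04 with all 13 targets, 3.30 in bins of 3 and 2.84 with the order-2 effective number, and 3.85 to 6.15 with 1 target left out at a time. The median number of starts was 14 with a floor of 0.5%, 4 with a floor of 2% and 29.9 as the expected number of all positions at equal depth, and 8 to 10 with 1 target left out. The median width of 14 bases became 7 without positions of fewer than 10 ends, 6 within 50 bases of the main start, 28 for the 5th to 95th percentile and 3 for the 25th to 75th, and was 11 to 17 bases with 1 target left out. The number of narrow targets, 4 of 9, was 5 without positions of fewer than 10 ends, 6 within 50 bases of the main start, 7 with all 13 targets, 2 for the 5th to 95th percentile, 7 for the 25th to 75th and 3 to 4 with 1 left out. The number of targets with 2 or more clusters was 1 within 50 bases of the main start (which drops the downstream cluster of C19orf43 by construction), 1 with a floor of 0.5%, 1 with a floor of 2%, 4 with a joining distance of 10 bases, 1 with 40 bases, and 1 to 2 with 1 target left out (1 without C19orf43 or without C1orf63). The median share of ends on a pyrimidine-purine step was 1.52% with positions as listed, without adding 1, and 64.99 to 73.4% with 1 target left out. Of 81 values of single targets, 41 stayed within their counting interval and 40 did not. No paired analysis was possible because the deposited list does not separate the 2 libraries, and for the same reason leaving out a replicate was not run. Where no cause is named, the cause was not tested. Depth limits the 4 shallow targets. The wide interval of the width at C1orf63, with 1453 ends, goes with a 10th percentile that lay between its 2 clusters. The interval of that percentile ran from 31 to 3 bases upstream.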
